A study of Mus musculus with 1248 samples.

Results

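Among 1122 wells that passed the depth limits, each holding 1 cell sorted from the hindlimb bone or fat pad of mice given mammary tumour cells, 118 carried the RNA of pro-B and pre-B cells. These wells were chosen by their own counts, in CPM, the counts of a gene scaled by all gene counts of the well. A well was kept with at least 200 CPM of Cd79a, a chain of the B-cell receptor complex, and at least 200 CPM of Igll1, the lambda5 part of the surrogate light chain. It also had to hold under 3000 CPM of S100a8, a neutrophil gene, under 100 CPM of C1qa, a macrophage gene, and under 500 CPM of Krt8 plus Krt18, keratins of the tumour cells. The study holds 1248 cells in all, and the rule was applied to the 1140 cells taken from mice. A well passed with at least 1000 detected genes and at least 50000 counts in genes.

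The study followed 4T1 mouse mammary carcinoma cells and 4T1.2, a subline of 4T1 that spreads to bone, after injection into the heart of female BALB/c mice. The injected cells of either line had been labelled with mCherry and firefly luciferase, and single mCherry-positive cells were sorted into plates for full-length sequencing by a modified Smart-seq2 protocol. The groups from mice were 4T1.2 bone at day 4, with 240 passing wells, and 4T1 bone at days 4, 10 and 16, with 499, 96 and 191 passing wells. Cells from the mammary fat pad at day 22 after 4T1 injection gave 96 passing wells, and 107 passing wells came from culture of both lines. Wells whose amplified cDNA gave an mCherry Ct above 30 were discarded by the submitters, so every well had been chosen for the reporter both in the sorter and by PCR, and the shares of cell types below are shares of these sorted wells. The labels call every cell a tumour cell and name no mouse or plate, so each group counts as 1 sample, no test was run, and intervals cover counting error only.

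B cells of the bone marrow are built in steps. Pro-B cells join V, D and J segments of the heavy-chain locus with the Rag1 and Rag2 recombinase, and Dntt, terminal deoxynucleotidyl transferase, adds bases at the joints. A finished heavy chain is then carried to the surface of a pre-B cell by the surrogate light chain of Igll1 and Vpreb, with Cd79a and Cd79b as signalling chains. Signals through this receptor and through the interleukin-7 receptor drive division, after which the kappa or lambda light chain is joined and the surrogate chain is switched off.

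The set held markers of the lineage that the choice did not use. Ebf1, a transcription factor that sets up the B lineage, reached 50 CPM in 110 of the 118 wells and Vpreb1 in 113, whereas Dntt reached it in 68. Total gene counts ran between 634324 and 8227242 per well with a median of 2868320, and 7181 to 11733 genes were detected. Near the limit for Igll1 the wells just inside held 200.4, 202.1 and 226.9 CPM, and the wells just outside held 197.1 and 164.7 CPM. For S100a8 the nearest wells inside held 2988 and 2978 CPM and the nearest outside 3104 CPM, and for Cd79a the lowest inside held 340.7 CPM and the highest outside 139.2 CPM. No pair of the 118 wells had identical counts. None of the 107 passing culture wells met the rule, and the highest Igll1 level among them was 2.30 CPM.

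For comparison, 34 wells met the same limits with Igll1 under 50 CPM. They are called later B wells here, only because Igll1 is known to be switched off after the pre-B stage, and another 6 wells lay between the limits. The 441 other host wells had under 200 CPM of Cd79a and under 500 CPM of the keratin sum, and their median S100a8 level was 1287 CPM. A summed level is the CPM of all counts of a set of wells, and a ratio between sets is the log2 ratio of summed CPM plus 5. Genes with at least 20 summed CPM in either set were compared, and a gene is called higher or lower at 2-fold or more.

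The surrogate light chain genes lie on mouse chromosome 16, and the stretches before their start sites are shown because these genes set the wells apart. In GENCODE M21 on GRCm38, Igll1 occupies chr16:16860671-16863985 and Vpreb1 occupies chr16:16868403-16870843, both on the minus strand. The first of these Vpreb1 positions lies 4418 bases after the last Igll1 position. Vpreb2 occupies chr16:17980428-17981273 on the plus strand. Promoters of 11 genes were matched in the RefSeq table for GRCm38.p6. The first line holds the 250 bases before the RefSeq start of Igll1 (chr16:16863986-16864235, minus strand). The other lines hold the 30 bases around the CAGGTG of Vpreb1 (chr16:16869326-16869355, minus strand) and of Vpreb2 (chr16:17980321-17980350, plus strand). Capitals mark CAGGTG on either strand, an E-box of the kind bound by E2A proteins, and CCCNNGGG, the core of sites bound by Ebf1.
Igll1: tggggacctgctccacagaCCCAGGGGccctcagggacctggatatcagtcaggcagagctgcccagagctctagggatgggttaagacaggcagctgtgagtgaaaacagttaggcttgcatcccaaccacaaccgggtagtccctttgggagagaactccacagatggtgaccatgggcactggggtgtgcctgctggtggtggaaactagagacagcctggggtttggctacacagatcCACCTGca
Vpreb1: atgacgttccagCAGGTGcttcctcccaga
Vpreb2: atgactttccagCAGGTGcttcctcccaga

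The Igll1 stretch held CACCTG, the reverse of CAGGTG, at bases -8 to -3 from the RefSeq start and CCCAGGGG at -231 to -224. The Vpreb1 match lay at -88 to -83, upstream of the coding transcript and within an exon of a non-coding Vpreb1 transcript in GENCODE. The Vpreb2 match lay at -232 to -227 from a RefSeq start that is downstream of the GENCODE one. The 2 short stretches shared 29 of 30 bases, with the single change G6T counted from the left end of the lines, Vpreb1 first. CAGGTG on either strand was also found within 250 bases before Cd79a, Rag1 and Blnk, but 17.2% of 32851 promoter windows of that length hold it, and 11.8% hold CCCNNGGG. Over their transcripts Vpreb1 and Vpreb2 were 97.4% identical in 759 aligned bases, so reads of these genes may have been split or lost between them.

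The pro-B and pre-B wells came almost wholly from day 4. They were 34 of 240 passing wells with 4T1.2 at day 4, or 14.2% (exact 95% interval 10.0 to 19.2%), and 80 of 499 with 4T1 at day 4, or 16.0% (12.9 to 19.6%). At day 10 none of 96 wells qualified (0 to 3.77%), and at day 16 there were 4 of 191, or 2.09% (0.573 to 5.28%). In the fat pad there were 0 of 96 (0 to 3.77%). The intervals of both day 4 groups overlapped each other and lay above those of the later bone groups. Among wells of the B lineage in this gate, the pro-B and pre-B wells were 34 of 49 with 4T1.2 at day 4 (69.4%, 54.6 to 81.7%) and 80 of 104 with 4T1 at day 4 (76.9%, 67.6 to 84.6%). The limits on S100a8 and C1qa kept out unequal shares of wells with Cd79a at 200 CPM or more. They were 81 of 240 passing wells with 4T1.2 at day 4 (33.75%) and 38 of 499 with 4T1 at day 4 (7.62%). Such wells are in neither the shares above nor the comparison between lines. 4T1.2 bone of later days was not analysed here. Day or tissue and the single sample that stands for it cannot be told apart.

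**Figure D1:**
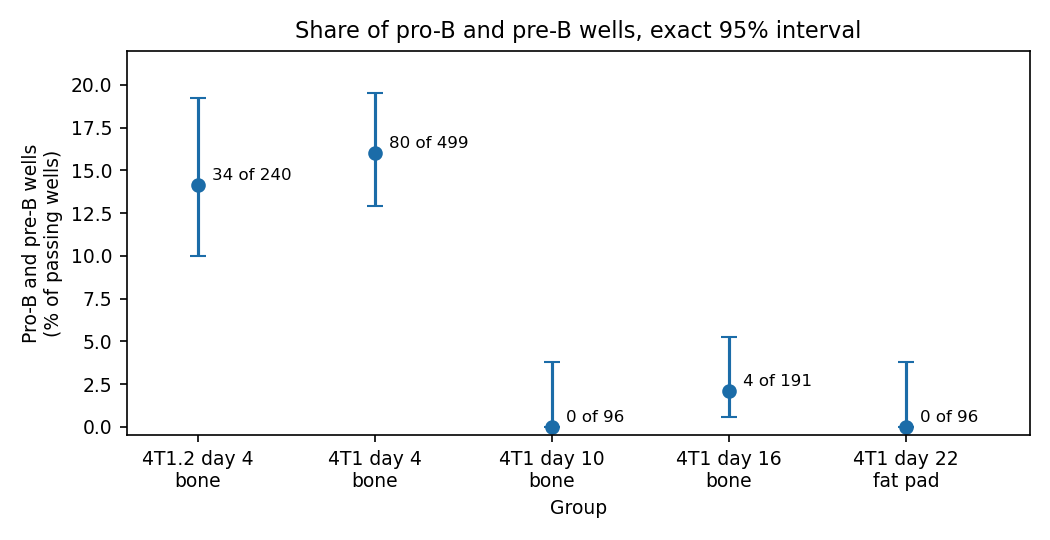
Share of passing wells that held pro-B and pre-B RNA (vertical axis, percent) in each group (horizontal axis), with exact 95% binomial intervals for counting error and the number of wells. The 4T1.2 and 4T1 bone groups of day 4 stood at 14.2 and 16.0%, and the other groups at 2.09% or 0.

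The surrogate light chain genes Igll1, Vpreb1 and Vpreb2 were higher than in later B wells, and Syk and Lyn, kinases at the receptor, were lower. Igll1, which chose the wells, ran between 200.4 and 6432 CPM with a median of 1184 CPM in the pro-B and pre-B wells, against 0 to 9.32 CPM with a median of 3.62 CPM in the later B wells. Vpreb1, the partner chain of lambda5, had a median of 794.4 CPM (2.28 to 5742 CPM) in the pro-B and pre-B wells and 3.52 CPM (0 to 151.9 CPM) in the later B wells, and 113 of 118 against 3 of 34 wells reached 50 CPM. Vpreb2 had medians of 68.0 CPM and 0.32 CPM in these sets, and its highest later B well held 1.81 CPM. The gap in Igll1 was set by the rule. Vpreb1 and Vpreb2 overlapped between the sets, and 5 of the pro-B and pre-B wells had Vpreb1 under 50 CPM.

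Vpreb3, Cd79b, Blnk and Ighm were under 2-fold apart by their sums, with Cd79b and Ighm lower by median in the pro-B and pre-B wells. Vpreb3, an accessory protein of receptor assembly, had a median of 842.1 CPM in pro-B and pre-B wells and 740.4 CPM in later B wells. Cd79b had 592.8 CPM in pro-B and pre-B wells and 1033 CPM in later B wells, and Blnk, the adaptor behind the receptor, 420.1 and 465.7 CPM. Ighm, the mu heavy chain, was in every well of both sets, at a median of 3514 CPM in pro-B and pre-B wells and 7146 CPM in later B wells. The kinases at the receptor were lower: Syk had a median of 127.8 CPM in pro-B and pre-B wells against 326.5 CPM in later B wells (log2 ratio -1.17), and Lyn 39.4 against 216.4 CPM (-1.24). Within 4T1.2 day 4 alone these ratios were -0.66 for Syk and -0.48 for Lyn, under 2-fold.

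Of 16 measured members of the receptor list, 3 were at least 2-fold higher than in later B wells, namely the surrogate chain genes, and 2 lower, Syk and Lyn, with a list median of -0.16 beside 0.05 for all genes. Over all 7689 genes compared, 719 (9.35%) were higher and 697 (9.06%) lower. Igll1 chose both sets, so nothing is read from these shares. The higher genes were 50.8% of those called, and 39.6% with DESeq2 size factors, under which the median of all genes was -0.09.

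**Figure D2:**
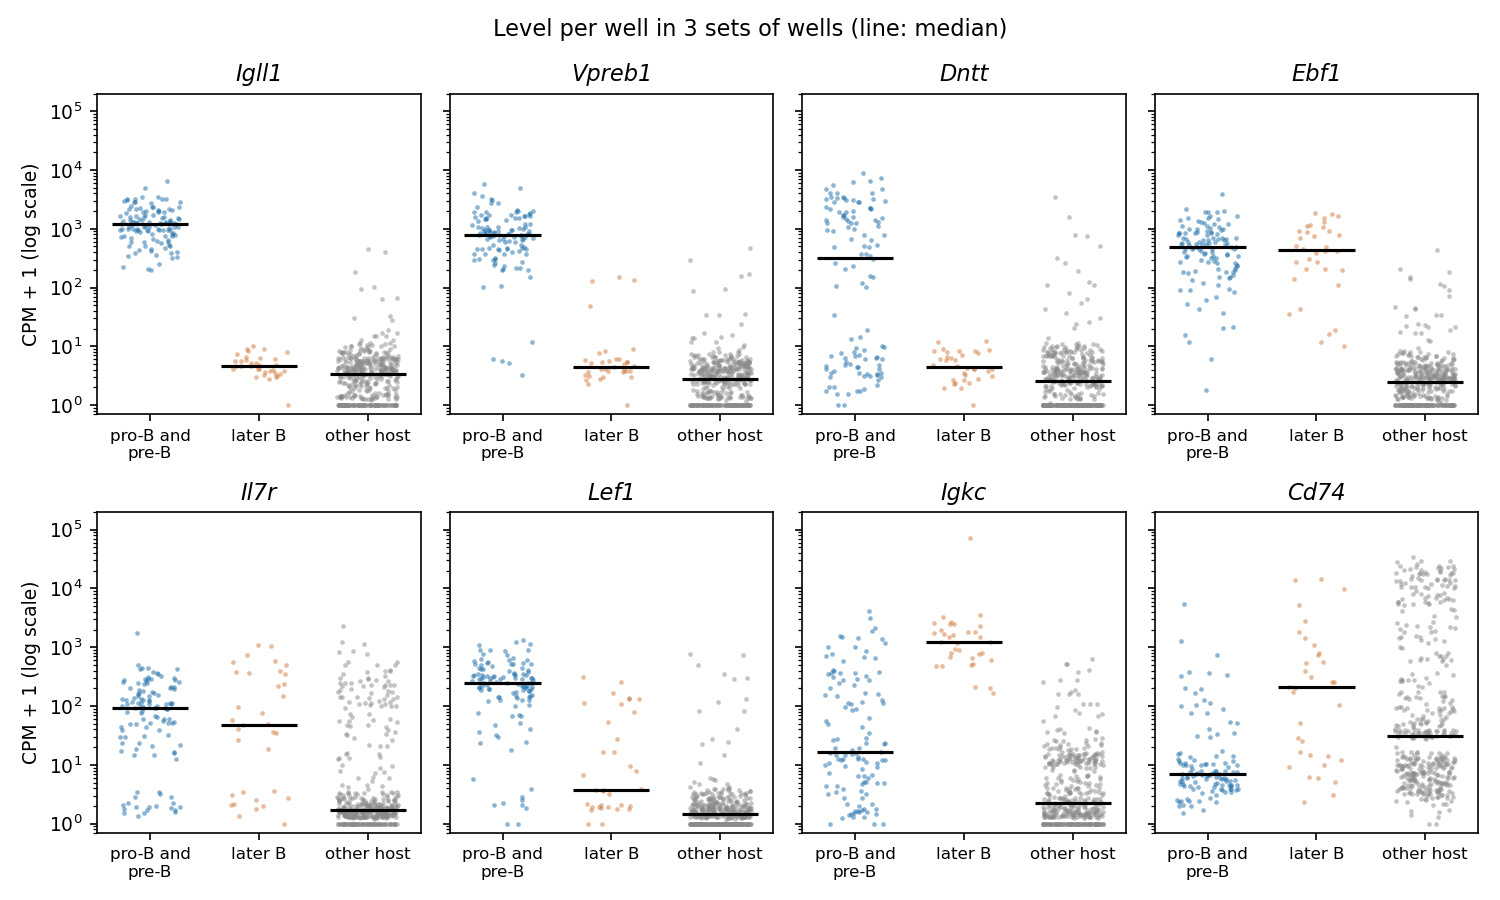
Level per well (CPM plus 1, log axis) of 8 genes in pro-B and pre-B wells, later B wells and other host wells, with a line at each median and 1 point per well. Igll1, Vpreb1 and Lef1 are high in the pro-B and pre-B wells, Dntt and Igkc are each split among them, and Ebf1 is high in both B-lineage sets.

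Of the recombination genes, Dntt, Prkdc, Rag1, Xrcc5 and Poll were higher than in later B wells, and Polm, Dclre1c and Lig4 were lower. Xrcc6, the Ku70 end binder, and Hmgb1 and Hmgb2, DNA-bending proteins that assist the recombinase, had medians of 295.6, 1427 and 1357 CPM in pro-B and pre-B wells and 212.9, 1041 and 2001 CPM in later B wells, under 2-fold apart by their sums. Dntt had a median of 323.2 CPM and reached 9037 CPM in the pro-B and pre-B wells, whereas its highest later B well held 11.2 CPM (log2 ratio 7.04). Rag1 reached 50 CPM in 21 of 118 pro-B and pre-B wells and in 2 of 34 later B wells (log2 ratio 1.53), and Rag2 in 42 and 5 wells (0.85, under 2-fold). Prkdc, the DNA-dependent kinase of end joining, reached it in 39 pro-B and pre-B wells and 3 later B wells (1.87), Xrcc5, the Ku80 end binder, in 29 and 4 (1.34), and Poll, a repair polymerase, in 25 and 3 (1.32). Polm, a polymerase that acts at light-chain joints, went the other way, with 13 of 118 pro-B and pre-B wells against 12 of 34 later B wells and a log2 ratio of -1.80. Dclre1c, the Artemis nuclease, gave -1.34 and Lig4, the ligase of end joining, -1.32. In all, 5 of 13 measured members of the list were higher and 3 lower, beside 9.35% and 9.06% of all genes. Within 4T1.2 day 4 alone the ratio of Polm was -0.54.

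Among transcription factors, Lef1 and Erg were the 2 of 24 measured members that were higher in the pro-B and pre-B wells. That share was close to the 9.35% of all genes, and the list median was -0.22 beside 0.05 for all genes. Lef1, a Wnt pathway factor of early B cells, had a median of 246.9 CPM with 100 of 118 wells at 50 CPM or more, against 2.78 CPM and 10 of 34 in later B wells (log2 ratio 2.55). Erg, an ETS factor of progenitors, reached 50 CPM in 22 pro-B and pre-B wells and in none of the later B wells, whose highest value was 26.4 CPM (2.80). The general B-cell factors were level: Ebf1 had a median of 487.3 CPM in pro-B and pre-B wells and 434.6 CPM in later B wells, and Pax5, which holds cells to the lineage, 118.8 and 103.1 CPM.

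The 5 lower factors of the 24 were Klf2, Spib, Spi1, Pou2f2 and Irf4, where 9.06% of all genes were lower. Spib had a median of 24.6 CPM in pro-B and pre-B wells against 652.7 CPM in later B wells (log2 ratio -1.86), and Irf4 84.1 against 276.2 CPM (-1.12). Klf2, a factor of quiescence and trafficking, reached 50 CPM in 16 of 118 pro-B and pre-B wells and in 21 of 34 later B wells (-2.63). Pou2f2 and Spi1 gave -1.14 and -1.18. Wells of each set overlapped for every one of these factors, and Irf4 within 4T1.2 day 4 alone gave -0.91.

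Il7r, the interleukin-7 receptor chain, had a median of 92.4 CPM in pro-B and pre-B wells and 47.6 CPM in later B wells, while its summed log2 ratio was -0.69, under 2-fold and in the other direction. Kit, the stem cell factor receptor, reached 50 CPM in 16 of 118 pro-B and pre-B wells and 1 of 34 later B wells (log2 ratio 1.89). Jak3, a kinase of the interleukin-7 receptor, reached it in 51 and 4 wells (1.17), and Socs2, a feedback target of Stat5, in 66 and 5 (1.05). The survival gene Bcl2l1 was lower, with a median of 5.28 CPM in pro-B and pre-B wells against 410.4 CPM in later B wells (-1.60), and Bcl2, at 50 CPM in 7 and 5 wells, gave -1.28. Of 19 measured members of this list, these 3 were higher and these 2 lower, beside 9.35% and 9.06% of all genes. The list median was -0.01, beside 0.05 for all genes.

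Mki67, a marker of dividing cells, reached 50 CPM in 100 of 118 pro-B and pre-B wells and in 26 of 34 later B wells. It was at a median of 523.2 CPM in pro-B and pre-B wells, 725.9 CPM in later B wells and 17.8 CPM in other host wells. The sum over 42 S phase genes had medians of 9864 CPM, 6161 CPM and 770.8 CPM in these sets, and the sum over 53 G2 and M phase genes 15049, 22100 and 1993 CPM. Against later B wells, 4 of 40 S phase genes were higher and 0 lower, a share of higher genes close to the 9.35% of all genes, with a list median of 0.44 beside 0.05 for all genes: Chaf1b (log2 ratio 1.49), Casp8ap2 (1.46), Tyms (1.28) and Pcna (1.01), genes of chromatin assembly, histone RNA, thymidylate synthesis and the replication clamp. The largest cell-cycle ratio was that of Cdk6, a kinase of the G1 phase, at 418.0 CPM in pro-B and pre-B wells against 4.25 CPM in later B wells (3.11), with 103 of 118 and 9 of 34 wells at 50 CPM. Cdk4 gave 1.15 and the inhibitor Cdkn1a had medians of 140.8 CPM in pro-B and pre-B wells and 5.40 CPM in later B wells. Of 17 measured cyclins, inhibitors and related genes these 3 were higher and 3 were lower, beside 9.35% and 9.06% of all genes, with a list median of -0.20. The lower ones were the inhibitor Cdkn2d, with medians of 147.3 CPM in pro-B and pre-B wells and 321.2 CPM in later B wells, the antiproliferative gene Btg1, with 209.7 and 600.4 CPM, and Ccnd1, at 50 CPM in 3 and 2 wells.

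Light chain, class II and surface genes of maturing B cells were low in most pro-B and pre-B wells. Igkc, the kappa constant region, had a median of 15.5 CPM (0 to 4102 CPM) with 46 of 118 wells at 50 CPM, against 1228 CPM (165.9 to 71906 CPM) and 34 of 34 in later B wells (log2 ratio -3.54). Within 4T1.2 day 4 alone that ratio was -0.92, and within 4T1 day 4 alone it was -4.63. The value of 71906 CPM came from 1 later B well of 4T1 day 4, and the next highest later B well held 3605 CPM. The summed level of the later B wells, 3141 CPM, includes that highest well. The lambda constant regions Iglc1, Iglc2 and Iglc3 reached 50 CPM in 1, 1 and 2 pro-B and pre-B wells and in 7, 8 and 5 later B wells. The ratio of Iglc3 turned to 0.41 within 4T1.2 day 4 alone, and in the single later B well of day 16 Iglc2 stood at 4138 CPM. Ighg2b was the constant region that went the other way, at 50 CPM or more in 10 of 118 pro-B and pre-B wells up to 1454 CPM, against at most 1.13 CPM in later B wells (3.52).

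Of 10 listed genes of MHC class II presentation 9 passed the filter on low values, and these were all at least 2-fold lower in the pro-B and pre-B wells, with a list median of -2.56. Over all genes 9.06% were lower. A gene can pass that filter through the later B wells alone, and such a gene cannot come out higher. Cd74, the invariant chain, reached 50 CPM in 19 of 118 pro-B and pre-B wells and 20 of 34 later B wells (medians 5.97 and 206.6 CPM, log2 ratio -4.14). H2-Aa reached it in 19 and 22 wells (-3.70), H2-Eb1 in 9 and 17 (-3.92), and H2-Ab1 in 54 and 26 (-2.56). The values differed between the day 4 groups, each of which is 1 sample, and this difference was not tested. Within 4T1.2 day 4 alone Cd74 gave 0.26, H2-Ab1 0.096 and the pseudogene H2-Ea-ps 0.50, with a list median of -0.55, and within 4T1 day 4 alone Cd74 gave -5.61. Of the 21 measured later maturation genes, 12 were lower and 0 higher, beside 9.06% and 9.35% of all genes. Cd83, Fcmr and Cd2 passed the filter only through the later B wells, with summed levels of 1.54, 6.04 and 11.1 CPM in the pro-B and pre-B wells. The counts for both lists were thus partly set by the filter. Cd83, an activation marker, reached 50 CPM in 1 of 118 and 9 of 34 wells (-5.02), Ms4a1, the CD20 antigen, in 5 and 12 (-3.74), Cd2 in 8 and 18 (-3.57), and Fcrla, an Fc receptor-like protein, in 45 and 31 (-1.84). The IgM receptor Fcmr, at 50 CPM in 4 and 10 wells, gave -3.45 in all and 0.55 within 4T1.2 day 4 alone.

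Outside the lists, Bcat1, an enzyme of branched-chain amino acid breakdown, was higher by 4.82 on the log2 scale. It had a median of 93.6 CPM with 67 of 118 pro-B and pre-B wells at 50 CPM, against at most 2.40 CPM in any later B well. Drc7, Inka1, Frmd6, Txnrd3 and Fcrl6 reached 50 CPM in 50, 48, 53, 42 and 27 pro-B and pre-B wells and in no later B well, whose highest values were between 0.773 and 4.10 CPM. Their log2 ratios ran between 3.78 for Fcrl6 and 4.21 for Drc7. The transcript 2900026A02Rik reached 50 CPM in 67 pro-B and pre-B wells and in 1 later B well (4.06). Serpina3g, a serine protease inhibitor, gave 3.79 but was at 50 CPM in 10 of 118 wells.

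Other genes furthest in the low direction were Ahnak (log2 ratio -3.39, 12 of 118 pro-B and pre-B wells against 13 of 34 later B wells at 50 CPM), Ly86 (-3.33, 7 and 11 wells) and Cav1. Cav1 reached 50 CPM in a single later B well, of 3289 CPM, and gave 0.031 within 4T1 day 4 alone. Of 18 measured immediate early genes, which respond within minutes to stimulation or handling, 8 were lower and 0 higher, beside 9.06% and 9.35% of all genes. Nr4a2 gave -2.28 and turned to 0.51 without wells that held RNA of other cell types, while Fos gave -1.53 and turned to 0.11 within 4T1 day 4 alone.

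Against the 441 other host wells, 2229 of 7952 genes (28%) were higher in the pro-B and pre-B wells and 1306 (16.4%) lower. The rule used this contrast, and nothing is read from these shares. The higher genes were 63.1% of those called, and 49.1% with TMM factors, and the middle of all ratios was 0.49 in log2, or 0.25 with TMM factors. Enpep, the BP-1 aminopeptidase of pre-B cells, had a median of 74.3 CPM with 64 of 118 wells at 50 CPM, against 1 of 441 other host wells. Mzb1, an endoplasmic reticulum protein of antibody assembly, had 554.4 CPM in pro-B and pre-B wells, 132.4 CPM in later B wells and 1.22 CPM in other host wells. Pou2af1, a coactivator of immunoglobulin genes, had 360.4 CPM in pro-B and pre-B wells against 0.73 CPM in other host wells (5.77), and Cplx2, a complexin, 179.8 against 0.30 CPM (5.04). Fam129c, a B-cell protein also called Niban3, reached 50 CPM in 81 of 118 and 29 of 441 wells (4.87). The genes furthest lower were those of neutrophil granules and macrophages, with log2 ratios of -6.48 for Ltf, -6.47 for Lcn2, -6.33 for Camp and -7.13 for Apoe. Of the cell-cycle lists, 39 of 40 S phase genes and 49 of 53 G2 and M phase genes were higher than in other host wells.

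Dntt divided the pro-B and pre-B wells, and much else moved with it. It lay at 50 CPM or more in 68 wells, between 101.2 and 9037 CPM, and under 50 CPM in 50 wells, between 0 and 33.0 CPM. These are called Dntt-positive and Dntt-negative wells. A single well fell between 25 and 100 CPM, so a limit of 100 CPM gave the same division. The Dntt-positive wells were 20 of 34 with 4T1.2 at day 4, 47 of 80 with 4T1 at day 4 and 1 of 4 with 4T1 at day 16. Mki67 reached 50 CPM in 54 of 68 Dntt-positive and 46 of 50 Dntt-negative wells. This division and its comparison were chosen after the data had been seen, and over all 7498 genes 554 (7.39%) were higher in Dntt-positive wells and 254 (3.39%) lower.

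Vpreb2 and the recombinase were higher with Dntt, the kappa chain was lower, and Igll1 and Vpreb1 had higher medians. Of 16 measured members of the receptor list, 2 were at least 2-fold higher and 4 lower, beside 7.39% and 3.39% of all genes. Igll1 had a median of 1595 CPM in Dntt-positive and 927.5 CPM in Dntt-negative wells, and Vpreb1 1075 and 457.2 CPM. Vpreb2 reached 50 CPM in 49 of 68 and 14 of 50 wells (log2 ratio 1.61). Rag1 reached 50 CPM in 18 of 68 Dntt-positive and 3 of 50 Dntt-negative wells (2.09), and Rag2 in 36 and 6 (1.64). Igkc reached it in 6 of 68 Dntt-positive wells, against 40 of 50 Dntt-negative wells with a median of 236.1 CPM (-2.91). Ighm was present in each well of both, at medians of 2685 and 5021 CPM.

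**Figure D3:**
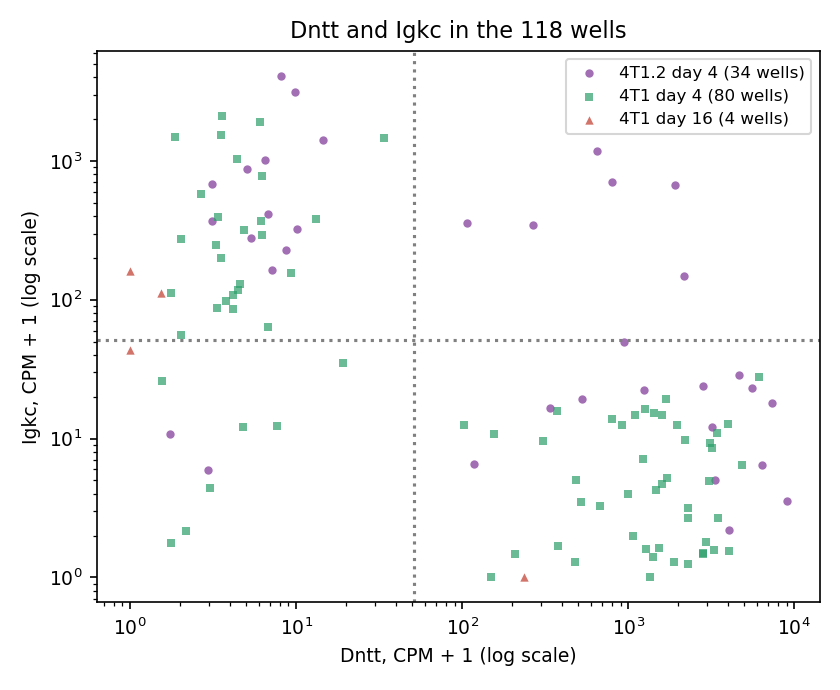
Dntt (horizontal axis) against Igkc (vertical axis), both as CPM plus 1 on log axes, with 1 point for each of the 118 pro-B and pre-B wells, coloured by group, and dotted lines at 50 CPM. The wells form a group with Dntt and little Igkc and a group without Dntt, of which 40 of 50 reach 50 CPM of Igkc, and all 6 wells above both lines came from 4T1.2 at day 4.

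Kit, Flt3, Erg and Ebf1 were among the genes higher with Dntt. Kit reached 50 CPM in 16 of 68 Dntt-positive wells and in none of the Dntt-negative wells, where its highest value was 7.29 CPM (log2 ratio 3.43), and the cytokine receptor Flt3 in 7 and 1 (2.84). Erg reached it in 21 and 1 wells (2.72), and Ebf1 had medians of 641.6 and 286.0 CPM (1.08). Gimap4, a GTPase of lymphocytes, reached 50 CPM in 32 of 68 and 1 of 50 wells (4.08), Gbp7, an interferon-induced GTPase, in 44 and 4 (3.85), and Prkch, a protein kinase C, in 30 and 2 (3.37). Grb7, Ctla2a, Ndrg1, Ly6a and Tgtp1 reached it in 20, 18, 26, 12 and 14 Dntt-positive wells and in 1, 0, 2, 0 and 1 Dntt-negative wells. Car1 and Serpina3g, with log2 ratios of 4.08 and 4.50, rested on 4 and 10 wells.

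Cd24a, Blk, Irf4, Spib and Ikzf3 were among the genes lower with Dntt. Cd24a, a surface glycoprotein, had a median of 970.8 CPM in Dntt-positive and 3670 CPM in Dntt-negative wells (log2 ratio -1.72). Blk, a kinase of the pre-B receptor, reached 50 CPM in 12 of 68 and 40 of 50 wells (-2.66), Lyn in 21 and 35 (-1.62), and Syk in 46 and 41 (-1.04). Of the transcription factors, Ikzf3, or Aiolos, reached it in 4 and 26 wells (-2.76), Irf4 in 23 and 43 (-2.19), Spib in 22 and 35 (-1.88) and Bach2 in 14 and 26 (-1.45).

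The inhibitory receptor Cd22 reached 50 CPM in 4 Dntt-positive and 28 Dntt-negative wells (log2 ratio -3.04), the inhibitory coreceptor Cd72 in 26 and 43 (-2.01), and Fcrla in 6 and 39 (-3.15). Ccnd2, a G1 cyclin, had medians of 10.5 and 152.5 CPM (-1.70). Myl4, Tmprss3, Rsph1, Myo1e, Hdac9 and Gm30211 reached it in 15, 5, 2, 3, 1 and 5 Dntt-positive wells and in 38, 28, 21, 15, 9 and 29 Dntt-negative wells. For Cd22 the later B wells did not continue this order, with 7 of 34 at 50 CPM and a median of 0.32 CPM. Ms4a1 gave -2.61 but reached 50 CPM in 1 and 4 wells.

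By list, 6 of 19 members of the interleukin-7 receptor and survival list were higher with Dntt and 0 lower, 7 of 15 later maturation genes were lower and 1 higher, and 15 of 19 interferon response genes were higher and 0 lower. Over all genes 7.39% were higher and 3.39% lower. Irf7, the interferon response factor, reached 50 CPM in 21 of 68 Dntt-positive and 4 of 50 Dntt-negative wells (log2 ratio 2.90), Usp18 in 15 and 2 (2.42), and Oas3 in 10 and 2 (2.25). The summed interferon list had medians of 793.7 and 507.2 CPM, and its highest well, at 23292 CPM, was Dntt-positive. Of 9 erythroid markers, 5 were higher with Dntt and 0 lower, as were 2 of 2 measured T and NK markers, 2 of 2 plasmacytoid and basophil markers, 2 of 9 neutrophil markers and 1 of 4 monocyte and macrophage markers, with 0 lower in each. The summed erythroid list had medians of 320.7 CPM in Dntt-positive and 191.5 CPM in Dntt-negative wells, and the summed T and NK list 2.26 and 1.48 CPM with highest wells of 5964 and 106.2 CPM. Nkg7, a granule gene of NK and cytotoxic T cells, reached 50 CPM in 12 of 68 Dntt-positive and 0 of 50 Dntt-negative wells. By the limits on single markers, which hold no NK marker, 9 of 68 Dntt-positive and 9 of 50 Dntt-negative wells carried RNA of other cell types. With these wells left out, 59 Dntt-positive and 41 Dntt-negative wells remained, and 658 genes were higher and 337 lower. Of the 554 higher and 254 lower genes, 491 and 227 were called again. The part of such RNA in the list counts was not tested. Within 4T1 day 4 alone the median of the erythroid list was -0.015.

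The V segments were not used in choosing the wells. Over 146 Ighv genes, 101 of the 118 wells had at least 100 counts. Among these, a single Ighv gene held at least 80% of the counts in 1 of 58 Dntt-positive wells (1.72%, 0.0436 to 9.24%) and in 22 of 43 Dntt-negative wells (51.2%, 35.5 to 66.7%). The most counted gene held a median of 31.8% of Ighv counts in Dntt-positive wells, 80.3% in Dntt-negative wells and 70.6% in later B wells. Ighv genes with 10 counts or more numbered a median of 9 per Dntt-positive well and 2 per Dntt-negative well. The 23 wells with a dominant gene used 18 different genes, with Ighv2-3 shared by 3 of them.

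For the kappa locus, 30 of 118 pro-B and pre-B wells had at least 100 Igkv counts, namely 7 of 68 Dntt-positive (10.3%) and 23 of 50 Dntt-negative wells (46.0%), against 21 of 34 later B wells (61.8%). Among these, 17 of the 30 wells (56.7%, 37.4 to 74.5%) had a dominant Igkv gene, spread over 12 genes with Igkv9-124 in 4 wells. They were 6 of 7 Dntt-positive wells (85.7%, 42.1 to 99.6%) and 11 of 23 Dntt-negative wells (47.8%, 26.8 to 69.4%). That order is opposite to the one for Ighv, and these intervals overlapped. Counts in both Ighv and Igkv genes were present in 6 of 68 Dntt-positive, 21 of 50 Dntt-negative and 21 of 34 later B wells. The mice were BALB/c and the reference is C57BL/6, so a V gene name stands for the nearest reference gene, and reads of several close genes can come from 1 rearranged gene.

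**Figure D4:**
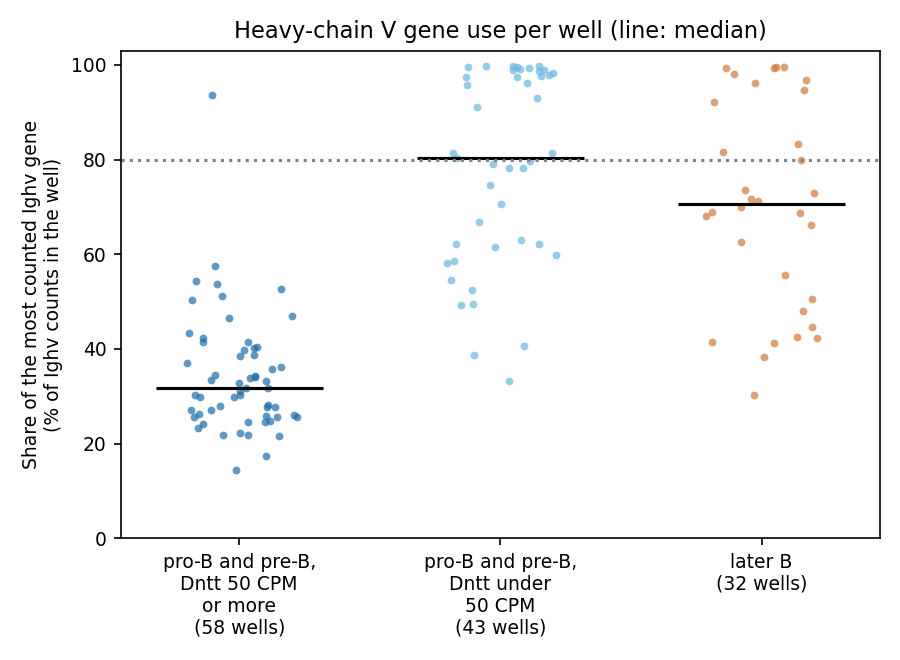
Share of Ighv counts held by the most counted Ighv gene (vertical axis, percent) in Dntt-positive pro-B and pre-B wells, Dntt-negative pro-B and pre-B wells and later B wells with at least 100 Ighv counts, with 1 point per well, a line at each median and a dotted line at 80%. A single Dntt-positive well lies above 80%, against 22 of 43 Dntt-negative wells.

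Across the 118 wells the gene whose level followed Igll1 most closely was Vpreb1, with a Spearman rho of 0.73 among 2413 genes with a median of at least 50 CPM. Rasgrp2, an exchange factor for Rap GTPases, came next at 0.58, then Dntt at 0.57, B2m, the light chain of MHC class I, at 0.57, and Tbc1d10c at 0.52. Vpreb2, Ebf1 and Impdh1 stood at 0.50. At the other end were Cd24a at -0.51 and Rrm2, a subunit of ribonucleotide reductase, at -0.50, with the replication genes Cdca5 and Cdc45 at -0.45. The S phase sum had a rho of -0.41 with Igll1, which was -0.11 in the 4T1.2 wells and -0.50 in the 4T1 wells of day 4, and of 0.58 with Ccnd3, a cyclin of pre-B division. Dntt-positive wells had a median S phase sum of 7569 CPM and Dntt-negative wells 12678 CPM. These are descriptions across wells that share few samples, and each value is a share of the well's total.

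Between lines, the pro-B and pre-B wells of day 4 were compared for early B-cell genes first. Igll1 had a median of 1027 CPM in 34 4T1.2 wells and 1231 CPM in 80 4T1 wells, Vpreb1 778.2 and 822.4 CPM, Cd79a 1620 and 1601 CPM, Ebf1 376.0 and 541.2 CPM and Il7r 107.8 and 92.1 CPM. Dntt reached 50 CPM in 58.8% (40.7 to 75.4%) of 4T1.2 and 58.8% (47.2 to 69.6%) of 4T1 wells, and Mki67 in 30 of 34 and 67 of 80. Of 7493 genes, 295 (3.94%) were higher and 246 (3.28%) lower with 4T1.2, and the higher ones were 54.5% of those called, or 67.4% with DESeq2 size factors.

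Lyn, Spib, Igkc, Myc, Polm and Klf2 were higher in the 4T1.2 wells, and Id3 and Erg lower. Lyn had a median of 108.4 CPM in 4T1.2 wells and 4.01 CPM in 4T1 wells (log2 ratio 1.11), and was the 1 member of 16 in the receptor list past 2-fold. Spib had 224.1 and 6.85 CPM (1.28), Igkc 155.3 and 11.4 CPM (1.28) and Myc 32.8 and 2.12 CPM (1.42). Polm reached 50 CPM in 8 of 34 and 4 of 80 wells (2.01) and Klf2 in 9 and 7 (1.11). Id3, an inhibitor of E proteins, was lower, at 238.4 CPM in 4T1.2 and 631.2 CPM in 4T1 wells (-1.42), as was Erg, at 50 CPM in 3 and 19 wells (-1.31). The wells of both lines overlapped in each of these genes.

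The genes furthest higher with 4T1.2 rested on few wells. Mpo, a granule enzyme of myeloid progenitors, reached 50 CPM in 6 of 34 4T1.2 wells, up to 9238 CPM, and in 2 of 80 4T1 wells, up to 364.5 CPM (log2 ratio 5.19). Elane and Ctsg, also granule proteases, reached it in 2 and 3 4T1.2 wells and in 1 and 1 4T1 wells, Il1b in 5 and 2, Ifit3 in 3 and 1, Rsad2 in 2 and 0, Tmcc2 in 1 and 1, and Ms4a1 in 5 and 0. Wells that carried RNA of other cell types were 7 of 34 with 4T1.2 and 10 of 80 with 4T1. Without them Elane, Ctsg and Il1b reached 50 CPM in 0 4T1.2 wells, and the median of 12 neutrophil markers, 1.07 with all wells, was -0.025. With S100a8 held under 1000 CPM that median was -0.036, that of 9 erythroid markers was -1.93, where 5 of 9 were higher with all wells, and Tmcc2 gave -0.54. Both choices of wells used S100a8, and the marks for other RNA also used Mpo and Lyz2. Lower neutrophil values thus followed in part from the choice. Over all genes 3.94% were higher with 4T1.2 and 3.28% lower. Cd74 gave 2.48 with 7 of 34 and 9 of 80 wells at 50 CPM, 4 of 6 class II genes were higher and 0 lower, and 8 of 20 interferon response genes were higher and 0 lower. These sums drew on few wells. The class II sum had medians of 403.1 CPM in 4T1.2 and 201.1 CPM in 4T1 wells and highest wells of 14467 and 2772 CPM, and the interferon sum had medians of 741.7 and 681.7 CPM and highest wells of 23292 and 7503 CPM.

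The genes furthest lower with 4T1.2 reached 50 CPM in between 8 and 38 of 80 4T1 wells, and in between 0 and 5 of 34 4T1.2 wells. Myadm, a myeloid-associated membrane protein, had a median of 4.42 CPM in 4T1.2 and 46.5 CPM in 4T1 wells, with 5 of 34 and 38 of 80 at 50 CPM (log2 ratio -2.17). Ldlrad4, an inhibitor of TGF-beta signalling, reached 50 CPM in 3 of 34 and 34 of 80 wells (-2.11), and Ndrg1, a stress-responsive gene, in 4 and 24 (-2.15). Chac1, a glutathione-degrading enzyme of the unfolded protein response, did so in 0 and 12 wells (-2.81), Sesn2, a stress-induced sestrin, in 0 and 14 (-2.27), Dolk in 0 and 15 (-2.38) and Dusp3 in 0 and 18 (-2.24). Serpina3g reached it in 2 and 8 wells (-2.71). With wells that carried RNA of other cell types left out, 376 genes were higher and 376 lower.

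The 4 wells of day 16 held Igll1 at 625.3, 770.0, 1007 and 2381 CPM and Cd79a at 704.2 CPM or more. The well with the most Igll1 had 233.6 CPM of Dntt, 0 CPM of Igkc and 1.64 CPM of Mki67. It also held the most T and NK RNA of the 118 wells, 5964 CPM over 11 markers, with 4616 CPM of Gzma, a granzyme of NK and cytotoxic T cells, and 0 CPM of Cd3e. In the other 3, Dntt was at most 0.54 CPM, Igkc ran between 42.7 and 161.2 CPM and Mki67 between 92.0 and 547.6 CPM. Chac1 stood at 406.2, 10.6, 721.4 and 175.2 CPM in the order of rising Igll1, where 12 of 80 4T1 wells of day 4 reached 50 CPM. These wells numbered too few for more than their values.

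By limits on single markers most of the pro-B and pre-B wells held little RNA of other cell types, but their median erythroid sum was above those of later B and other host wells. S100a8 lay between 84.9 and 2988 CPM with a median of 236.9 CPM, against 223.6 CPM in later B wells and 1287 CPM in other host wells, and the sum of 12 neutrophil markers had medians of 764.4, 742.7 and 12050 CPM in these sets. The rule limited S100a8 and C1qa in both B-lineage sets, so their ceilings and the gap to other host wells were partly set by the choice of wells. The sum of 10 erythroid markers had medians of 244.2 CPM in pro-B and pre-B wells, 92.1 CPM in later B wells and 38.8 CPM in other host wells. It reached 1000 CPM in 7 of 118 pro-B and pre-B wells, up to 60067 CPM. The highest pro-B and pre-B wells held 18902 CPM of neutrophil markers and 9530 CPM of monocyte and macrophage markers. The sum of 11 T and NK markers had medians of 1.696 CPM in pro-B and pre-B wells, 2.12 CPM in later B wells and 4.35 CPM in other host wells, and 1 pro-B and pre-B well passed 1000 CPM. Its defining T-cell marker Cd3e was at most 0.63 CPM in the pro-B and pre-B wells, and the highest T and NK sum in a 4T1.2 well was 760.9 CPM. C1qa was at most 19.1 CPM. In 18 of 118 pro-B and pre-B wells and 13 of 34 later B wells a myeloid, erythroid, T-cell or plasmacytoid marker or the luciferase reporter passed its limit. The T-cell limit, on Cd3e, marked none of the pro-B and pre-B wells, and no NK marker was among the limits. Without these wells 1217 genes were higher than in later B wells and 820 lower, and 652 of the 719 and 480 of the 697 were called again. mCherry, the sorting reporter, had a median of 2891 CPM in pro-B and pre-B wells, 2836 CPM in later B wells and 933.5 CPM in other host wells. The luciferase reporter of the same tumour cells reached 50 CPM in 2 of 118, 2 of 34 and 10 of 441 wells.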

How the data were processed

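Single cells were sequenced by a modified Smart-seq2 protocol, per the labels' protocols. Per the submitters' processing notes, reads were handled with Seurat 3.1.2, R 3.6.2, featureCounts 1.6.2, STAR 2.6.0c, SAMtools 1.7, Trim Galore 0.6.6 and FastQC 0.11.7, named without order, and the build was mm10. The authors deposited whole-number counts per gene and cell, with no molecular identifiers, so PCR copies are counted; whether counting used strand was not stated. Of 40840 entries, 40756 genes were used. The 78 ERCC spike-ins held 0.670% of counts, 2 reporters 0.187% and 4 repeated names 0.0149%.

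CPM was taken on gene counts of each well. Sets of wells were compared by summed counts with a pseudocount of 5 CPM, a limit of 20 CPM and a 2-fold call. No test was run, since each group is 1 sample. Poisson and Clopper-Pearson intervals are exact at 95% and cover counting error, also where 0 wells qualified. The text names all members of the B-lineage lists as needed and, per comparison, the 12 genes furthest each way (8 between lines) at 20 CPM or more, with a count in at least 50% of the wells of the higher set and 2-fold apart the same way in the mean over wells, leaving out V, D and J segments. The 8 genes most like Igll1 by Spearman rho had a median of at least 50 CPM. Of the other lists, a few members furthest along the list median were named. Members and lists were chosen with earlier results of these data known, and the division by Dntt, the left-out wells and genes described outside this rule after values were seen. Some genes that this rule takes in are not reported here. No doublet caller was run. Wells were instead marked as carrying RNA of other cell types with S100a8, Lyz2, Hbb-bs or Mpo at 1000 CPM, Siglech or Cd3e at 50 CPM or the luciferase reporter at 10 CPM. Scripts were tested on simulated data and used Python 3.11.15, numpy 2.4.6, pandas 2.3.3, scipy 1.17.1, matplotlib 3.10.9, biopython 1.88, R 4.3.3, edgeR 4.0.16 (TMM factors) and DESeq2 1.42.0 (size factors).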

Additional observations from a re-analysis of the deposited data

Results flagged for a closer look

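Outside the set described, 48 wells had at least 200 CPM of both Cd79a and Igll1 but passed the limit for S100a8 or C1qa, against 0 of the 107 passing culture wells. They came from 4T1.2 at day 4 (25 wells), 4T1 at day 4 (22) and 4T1 at day 16 (1), and their median S100a8 level was 16117 CPM. These are part of 122 wells with Cd79a over the limit and neutrophil or macrophage RNA beside it. The 122 wells were 81 of 240 passing wells with 4T1.2 at day 4 (33.75%), 38 of 499 with 4T1 at day 4 (7.62%) and 3 of 191 with 4T1 at day 16 (1.57%). The difference between groups was not tested. A further 2 wells with Igll1 at 200 CPM or more held keratin RNA, and 2 had Cd79a under 200 CPM.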

How the results depend on the processing

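The number of pro-B and pre-B wells ran between 100 and 124 under the limits tried (118 as reported), and their share in each group stayed within its interval. Against later B wells, 1145 genes were higher and 1081 lower with no filter on low values (719 and 697 as reported), 1251 were higher within 4T1 day 4 alone, 1050 lower within 4T1.2 day 4 alone, and 1217 higher without wells that carried other RNA. Within 4T1.2 day 4 alone the log2 ratios of Cd74 (0.26), H2-Ab1 (0.096), Fcmr (0.55), Iglc3 (0.41) and H2-Ea-ps (0.50) turned, within 4T1 day 4 alone those of Cav1 (0.031) and Fos (0.11), and without other RNA that of Nr4a2 (0.51). Against other host wells, 1482 genes were higher with TMM factors (2229 as reported). Between lines, 625 were higher and 479 lower with no filter (295 and 246 as reported), and 376 lower without other RNA; the neutrophil median turned to -0.036 with S100a8 under 1000 CPM and -0.025 without other RNA, the erythroid median to -1.93 and Tmcc2 to -0.54 with S100a8 under 1000 CPM. By Dntt, 943 were higher and 420 lower with no filter (554 and 254 as reported), 382 lower within 4T1 day 4 alone, and 1381 higher and 869 lower within 4T1.2 day 4 alone; the erythroid median turned to -0.015 within 4T1 day 4 alone. Dominant Igkv genes were in 33.3% of wells at a limit of 90% and in 100% (5 of 5) with at least 1000 counts (56.7% as reported). With no filter more genes were compared, and within a line fewer wells; otherwise the cause was not tested. No paired analysis was possible because cell numbers in the labels only name cells. Each set and group is 1 sample, and the number of samples limits every comparison.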
